A study of Mus musculus with 32 samples.

Results

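Pool 13 of a single-cell RNA-seq (scRNA-seq) series on cultured mouse marrow stromal cells held an unusually large number of droplets with little RNA, collagen transcripts and no transcript of the leukocyte gene Tyrobp. These droplets were chosen by fixed limits in run 1: 400 to 6200 detected genes, at most 10% mitochondrial UMIs (unique molecular identifiers, each standing for a captured transcript), 1500 to 5000 UMIs, no Tyrobp UMI and at least 5 UMIs of Col1a2 and Col3a1 together per 10000 UMIs. There were 2598 of them among the 7728 barcodes of pool 13, and 10743 droplets of 107853 barcodes met the same limits over all 16 pools of the run. Each pool held bone marrow stromal cells from the femurs of 4 or 5 Diversity Outbred (DO) mice, an outbred stock, and pool 13 held cells of 5. The cells, named BMSC-OBs, had all been grown to confluence and then kept in an osteogenic medium with ascorbic acid, β-glycerophosphate and dexamethasone, so every pool carries the same treatment and no untreated sample is compared. Cells were freed with EDTA, collagenase and trypsin, mixed within a pool, captured with a 10x Genomics 3′ kit and sequenced in 2 runs, giving 32 samples from 16 pools. The pools held different mice and were captured separately, so mice and capture cannot be told apart, and droplets were not assigned to mice here. Cells of 1 mouse of pool 13 were set aside in parts of the study for poor genotyping, and they are kept here. The 16 pools are the replicates, and droplets of a pool share its library.

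Osteoblasts lay down bone matrix. They secrete type I collagen, bone sialoprotein (Ibsp), osteopontin (Spp1) and osteocalcin (Bglap and Bglap2). The most mature of them, the osteocytes, make proteins such as Mepe and Dmp1 that act on mineral, and they also make Sost. Marrow stromal cultures also hold adipogenic stromal cells, which make Cxcl12, Lpl and Adipoq, and macrophages, which make lysozyme (Lyz2) and the complement proteins C1qa, C1qb and C1qc. Tyrobp is an adaptor of leukocyte receptors, so its absence was used to set leukocytes aside. In droplet methods each barcode also captures transcripts that float in the suspension, and the smaller the RNA content of a droplet, the larger is the part that such transcripts can take. Such transcripts enter every level and share of the low-RNA droplets given here, barcodes outside the called cells were not used here, and how large their part is was not tested.

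The limits themselves fixed the UMI, gene, mitochondrial, Tyrobp and collagen values, which are therefore given as a description. The droplets of pool 13 made up 36.1% of its 7195 droplets within the gene and mitochondrial limits (exact 95% interval 35 to 37.2, covering counting error only). In the other 15 pools the same limits held 180 to 1262 droplets, or 3.86% to 16.6% with a median of 9.24%. Above 5000 UMIs the order was nearly the opposite, since pool 13 had 1230 such droplets and the other pools 1028 to 3737. The median droplet of the low-RNA group of pool 13 had 2455 UMIs, 1153 genes, 4.13% mitochondrial UMIs and 146 collagen UMIs per 10000, against pool medians of 2161 to 3301 UMIs, 1059 to 1540 genes, 2.14% to 4.84% and 14.6 to 202 per 10000 elsewhere. None of these medians lay outside the other pools. The lower end of the collagen values did: 1.31% of the droplets of pool 13 had fewer than 20 collagen UMIs per 10000, and 12.3% to 62.1% of those of the other pools.

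**Figure D1:**
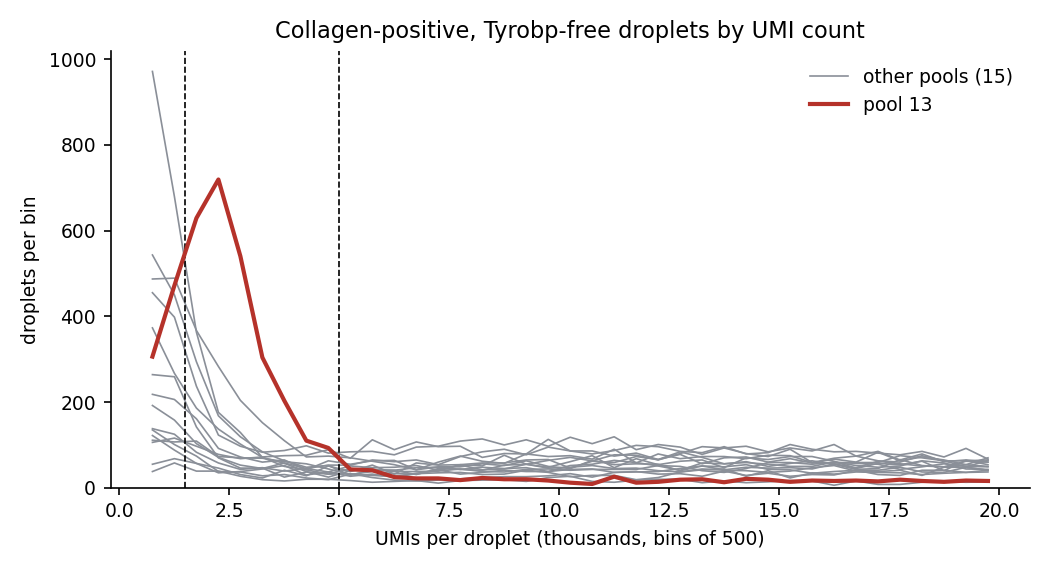
Number of collagen-positive droplets without Tyrobp UMIs (y axis) by UMIs per droplet in bins of 500 (x axis, in units of 1000), for pool 13 (thick red line) and the other 15 pools (grey lines); the dashed lines mark 1500 and 5000 UMIs. Pool 13 peaked at 719 droplets in the bin from 2000 to 2500 UMIs and lay low above 5000 UMIs.

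The following values of the library share their measures with the limits and are also a description. Its median of 2785 UMIs per droplet was the lowest of the 16 pools (others 3756 to 15166). Of its 4376 droplets of 1500 to 5000 UMIs within the gene and mitochondrial limits, 99.98% had a UMI of Col1a2 or Col3a1 (82.8% to 99.4% in the other pools) and 1 had none. The number of Tyrobp UMIs in the 4352 droplets with at least 5 collagen UMIs per 10000 was 0 in 2598, 1 in 1184, 2 in 364 and 3 or more in 206. The barcodes were called again less often in the second run of the same library: 79.5% of the low-RNA droplets of pool 13 had their barcode among the cells of run 2, against 97.7% to 100% of those of the other pools, while 99.8% of the droplets of pool 13 over 5000 UMIs were found again (99.96% to 100% elsewhere). Run 2 gave 2615 low-RNA droplets, or 35.7%, but they were partly other barcodes: 1641 of the 2598 droplets (63.2%) met the limits in run 2, and 62.75% of those of run 2 had met them in run 1. Pool 13 shared 7 to 21 barcodes with each other pool of run 1, and 79 of the 2598 droplets had a barcode that some other pool also held. The highest doublet scores fell on 151 of the 2598 droplets. The number of such scores in a pool was set beforehand by its barcodes (0.8% per 1000), so this count is not read as a trait of these droplets. Requiring no UMI of Tyrobp, the leukocyte surface gene Ptprc and Lyz2 left 428 droplets, 5.95% of pool 13, where the other pools had 1.36% to 9.03% and 2 of them had more.

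The UMI and Tyrobp limits did not fall at a gap, while the collagen limit lay in a nearly empty tail. There were 106 droplets of 1500 to below 1600 UMIs and 95 of 1400 to below 1500 with the other limits met, with Ibsp at 31793 and 33242 CPM (UMIs of a gene in the summed droplets, scaled to a total of 1000000) and Lyz2 at 1213 and 1166 CPM. At the upper edge there were 14 droplets of 4900 to 5000 and 14 above 5000 and up to 5100 UMIs. At the lower collagen edge there were 9 droplets of 5 to 10 and 6 under 5 UMIs per 10000, while 10% of all 2598 droplets had at most 95.4, and the 9 droplets had Ibsp at 1704.5 CPM and no Fmod UMI. Droplets with 1 or 2 Tyrobp UMIs, just outside the limits, had Fmod at 319 and 308 CPM and Lyz2 at 1403 and 1834 CPM, beside 333 and 1081 CPM in the droplets without Tyrobp.

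The proposed markers of the droplets were Fmod, Cercam, Cox4i2, H19 and Cxcl14. For each gene the UMIs of a pool's low-RNA droplets were summed and scaled to CPM, and differences are log2(CPM + 10) of pool 13 minus the median of the other 15 pools, which understates changes of low genes. A gene was called where pool 13 lay outside all 15 and the difference was at least 1. Of 8627 genes with a mean of at least 10 CPM, 9 were called higher (0.104%) and 19 lower (0.220%), and the median difference over all genes was -0.18, so single differences are to be read against that value. Of the 5 proposed markers, 2 were called. With TMM scaling the median over all genes was 0.04 and the split was 48 higher and 6 lower, and with the size factors of DESeq2 it was 33 higher and 6 lower. No p is given as a result for this contrast, and tests that take the spread from the other pools stand only among the alternatives, because pool 13 was picked for standing apart and 1 pool against 15 cannot give an exact permutation p below 0.0625. By the same rule each of the other pools had 2 to 225 genes higher and 4 to 198 lower, so that 13 of them had more genes called higher than pool 13.

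Fmod (fibromodulin, a small leucine-rich proteoglycan that binds collagen fibrils; GRCm38 chr1:134037254-134048277, plus strand) stood at 333 CPM in pool 13. The other pools ranged from 30.7 CPM in pool 6 over a median of 145 to 243 CPM in pool 10, so pool 13 was the highest, with a difference of 1.14. Cox4i2 (the subunit 4 isoform of cytochrome c oxidase that is induced at low oxygen; chr2:152754173-152765037, plus strand) stood at 371.5 CPM against 38.6 in pool 14, a median of 159 and 299 in pool 5, a difference of 1.17. Both calls ended at a collagen limit of 20 per 10000, where the differences were 0.95 and 0.97, and that of Fmod also in run 2 (0.9993) and with a pseudocount of 50 (0.97). Across UMI bands of the droplets the levels hardly moved, Fmod at 327, 340.5 and 332 CPM and Cox4i2 at 355, 391 and 370.2 CPM below 2500 UMIs, from 2500 to below 3500 and from 3500 upward.

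The other proposed markers lay among the other pools. Cercam (a glycosyltransferase-like adhesion protein; chr2:29869164-29882840, plus strand) was at 121 CPM, rank 3 of 16 from the highest, between 29.0 and 153.5 CPM elsewhere. Cxcl14 (a chemokine; chr13:56288643-56296551, minus strand) was at 218 CPM, also rank 3, with a range of 16.8 to 841.5 and a median of 88.1 CPM. H19 (an imprinted long non-coding RNA expressed from the maternal copy; chr7:142575529-142578143, minus strand) was at 130.5 CPM, rank 12, with a range of 40.6 to 996 and a median of 236 CPM. H19 was thus lower than the median pool, by 0.81, and Cercam and Cxcl14 were within the spread of the other pools although above their median by 0.70 and 1.22.

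**Figure D2:**
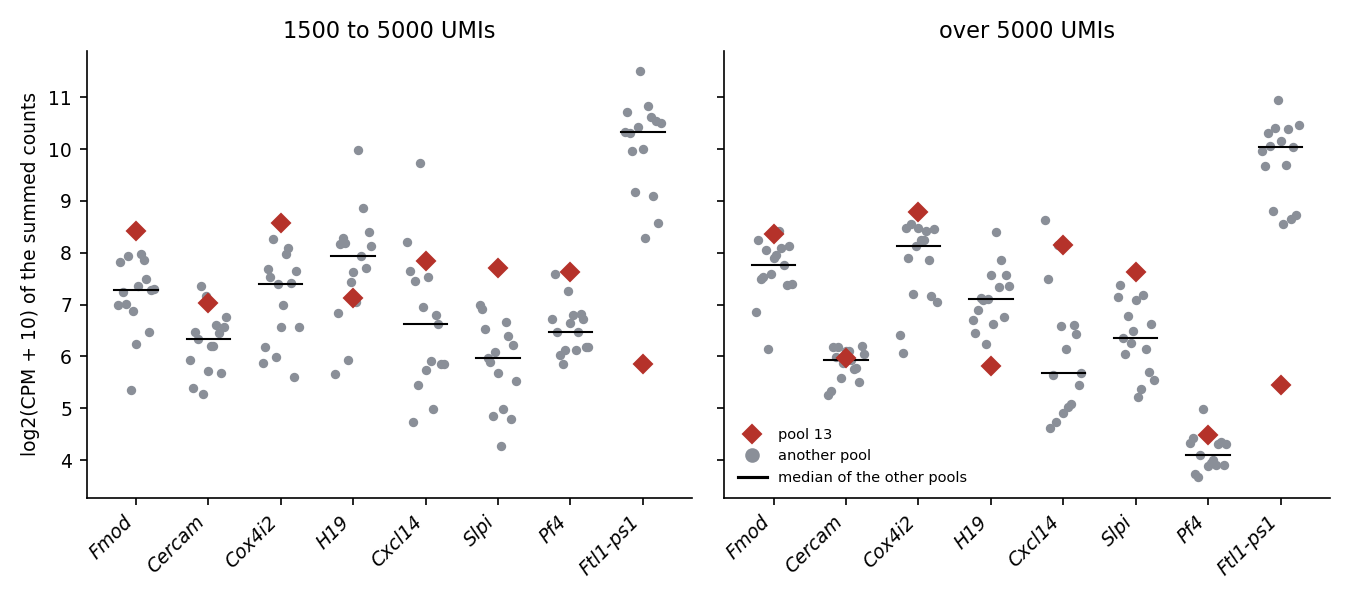
Level of the 5 proposed markers and of Slpi, Pf4 and Ftl1-ps1, as log2(CPM + 10) of the summed UMIs (y axis), in low-RNA droplets (left) and in droplets over 5000 UMIs (right); red diamonds are pool 13, grey points the other 15 pools and black bars their median. On the left pool 13 lay above all other pools for Fmod, Cox4i2, Slpi and Pf4, inside them for Cercam, H19 and Cxcl14, and below all of them for Ftl1-ps1.

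The highest difference belonged to Slpi, a secreted inhibitor of leukocyte proteases. It was at 198 CPM in pool 13 and between 9.45 and 118 CPM elsewhere, with a median of 52.9, a difference of 1.72. With no UMI of Tyrobp, Ptprc and Lyz2, or with a collagen limit of 50, it was above the median by 1.93 and 1.47 but no longer above every pool. Pf4, a chemokine of platelets, megakaryocytes and some macrophages, was at 187 CPM against 47.7 to 184 CPM, a difference of 1.14. Its margin over the next pool was small and the call was lost in run 2 and after removal of doublet calls, where the differences were 1.09 and 1.08, and in droplets below 3000 UMIs (0.62). The remaining genes called higher were the gene model Gm17669 (1.49), the small heat shock gene Hspb2 (1.21), Pappa2 (1.11), a protease of insulin-like growth factor binding proteins, Smim5 (1.08), a small membrane protein, and Adm2 (1.07), a vasoactive peptide.

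The lowest difference belonged to Ftl1-ps1 (chr13:74399694-74407346, plus strand), an annotated copy of Ftl1, which encodes the ferritin light chain that stores iron. It was at 47.9 CPM in pool 13 and at 301 to 2894 CPM elsewhere, with a median of 1280, a difference of -4.48. Ftl1 itself was the highest of the 16 pools, at 5069 CPM against 1191 to 4384 CPM. The transcripts are nearly the same, with 4 differing bases of 910 aligned (99.56% identity), so how reads were shared between them is uncertain. The stretch below is the coding window that holds both coding differences, in capitals, from the GENCODE M21 transcripts, Ftl1 at chr7:45458143-45458202 on the minus strand and Ftl1-ps1 at chr13:74407060-74407119 on the plus strand.
Ftl1: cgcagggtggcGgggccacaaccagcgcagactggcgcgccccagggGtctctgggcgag
Ftl1-ps1: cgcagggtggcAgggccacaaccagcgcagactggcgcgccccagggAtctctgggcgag
Summed, both came to 5117 CPM in pool 13 and 2290 to 5720 CPM elsewhere, rank 4. Ftl1-ps1 took 0.937% of that sum in pool 13 and 6.42% to 56.1% elsewhere, and it was as low in the deeper droplets of pool 13 (33.5 CPM against 365 to 1964), so both classes of pool 13 showed the difference.

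The other genes called lower have various roles. Of the 19 genes, 6 were also lower with TMM scaling and 10 in run 2 of the same libraries, where Gm8797 (-1.46), Plek (-1.04), Glul (-0.99), Plin2 (-0.93) and Pik3r1 (-0.82) lost the call. Rgs1, a regulator of G protein signaling in immune cells, was at 78.8 CPM against 98.1 to 496 (-1.48). Plek, a protein of blood cells that acts beneath the plasma membrane, was at 66.9 CPM against 70.9 to 251 (-1.01). The 16 macrophage and monocyte genes compared at the same limit had no call. The cytokine receptor genes Csf2rb (-1.32) and Il7r (-1.17), Cytip (-1.15) and the lipid exporter gene Abcg1 (-1.03) were also lower. Glul, which makes glutamine, was at 43.7 against 52.0 to 252 CPM (-1.12), Pik3r1, a regulatory subunit of phosphoinositide 3-kinase, at 86.7 against 94.0 to 360.2 (-1.09), Plin2, a lipid droplet coat gene, at 169 against 194 to 629 (-1.01), and Lhfpl2 at 45.01 against 52.4 to 164.5 (-1.02). The remaining calls were Gm8797 (-1.64), Cp (-1.11), Dusp5 (-1.10), Ramp3 (-1.06), Prdm1 (-1.06), S1pr1 (-1.06) and Celf2 (-1.01). Among the lower genes of at least 100 CPM in the median pool, those of Lhfpl2, Plek and Plin2 were lost without any 1 of 7 or 8 of the 15 pools (the differences nearest to 0 were -0.92, -0.95 and -0.99).

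A higher collagen limit changed the sign of some genes. At 50 in place of 5 collagen UMIs per 10000, an alternative added after the data had been seen, 2521 droplets of pool 13 remained. The other pools kept 50 to 921 droplets, against 180 to 1262 at the limit of 5, so their levels and ranges rest on fewer droplets. Of 8018 genes 13 were higher (0.162%) and 3 lower (0.0374%). Only 2 of the 9 genes higher at the limit of 5 and 1 of the 19 lower were called again. Rgs1 then came to 0.49 and Plek to 0.25, a change of sign in both. The levels of the other pools moved more than those of pool 13. Rgs1 went from 78.8 to 64.4 CPM in pool 13 and from 238 to 43.0 CPM in their median. Plek went from 66.9 to 57.6 CPM in pool 13 and from 145 to 46.8 CPM in their median. The 13 genes now included Cxcl14 (192.2 against 0 to 191.3 CPM, 2.72), the macrophage and osteoclast enzyme gene Acp5 (144 against 6.90 to 135 CPM, 2.52), Pf4 (1.67), the receptor chain Fcer1g (1.52), the lipopolysaccharide receptor Cd14 (1.33), C1qa (1.27), the lectin gene Lgals3 (1.18), the lysosomal protease gene Ctss (1.05) and Fcgr3 (1.02). In these droplets, 4 of the 15 macrophage genes compared were higher and their median difference was 1.12, beside -0.07 over all genes.

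Lists of genes with a known role gave few calls at the limit of 5. Of the 14 mature osteoblast genes none was called. Their median difference was 0.47, and 13 of the 14 were above 0, but with a collagen limit of 50 the median turned to -0.26, with a sum at rank 10. Ibsp was at 36158 CPM against 11704 to 37734, Col1a1 at 29298 against 8862 to 37007, Bglap at 3393 against 1065 to 4973 and Mepe at 473.5 against 23.9 to 488 CPM. Each lay within the other pools, Ibsp and Bglap at rank 3 and Mepe at rank 2. Bglap and Bglap2 are near-identical copies, so the division of reads between them is uncertain. The 10 osteocyte genes compared had a median of 0.46 with no call, which turned to -0.07 with a collagen limit of 50. Part of these osteoblast and osteocyte lists follows markers that the study chose on these samples, so they are not independent evidence of a direction.

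Of the 17 adipogenic stromal genes compared none was called and 14 were below 0, with a median of -0.44 that turned to 0.71 with a collagen limit of 50, where the sum was at rank 3. Cxcl12, which retains blood cells in marrow, was at 1158 CPM against 691 to 8023. Of 16 macrophage and monocyte genes none was called, with a median of 0.07. Lyz2 was at 1081 CPM against 409 to 1566, the second highest, and C1qb at 177 against 42.5 to 197 CPM. Without Spp1, which osteoblasts also make, that list summed to 2440 CPM in pool 13. The 7 granulocyte genes compared had a median of -1.60 with no call. All 12 genes of that list summed to 20.8 CPM in pool 13 against 10.2 to 4331 CPM. Among genes of cells that are not part of the culture's main types, the erythroid list summed to 0.146 CPM, the skeletal muscle list to 2.19 CPM and the glial list to 18.3 CPM, all within the other pools. The endothelial list summed to 28.6 CPM (3.78 to 39.7 elsewhere, rank 2), and with a collagen limit of 50 to 27.8 CPM, above the other pools (0 to 25.2).

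The gene list of cytochrome c oxidase, the last complex of the respiratory chain, had 15 members compared, all 15 above 0, 3 above the other pools (background 1.60% of genes above) and 1 called, Cox4i2, with a median of 0.17. Its sum of 7392 CPM was the highest of 16 (5202 to 7381). The sum includes Cox4i2, a proposed marker, at 371.5 CPM against 38.6 to 299 CPM elsewhere, a gap wider than the lead of the sum. The top rank is therefore not independent of that marker. Of 18 genes of the unfolded protein and amino-acid stress response 5 lay above the other pools, with a median of 0.41 and no call; Manf, a secreted factor of the endoplasmic reticulum, was at 455 CPM against 171 to 381, and Asns, which makes asparagine, at 134 against 45.6 to 115 CPM. Genes that respond to glucocorticoids such as dexamethasone went the other way: 4 of 11 lay below the other pools (background 11.7%), 1 was called (Glul), the median was -0.45 and the sum of 1251 CPM was the lowest of 16 (1392 to 2539). With a collagen limit of 50 the glucocorticoid list had 1 gene below the other pools, no call, a median of -0.18 and a sum at rank 14, the stress list had 1 gene above, and the sums of the cytochrome c oxidase and pericyte lists were at ranks 2 and 5. At the limit of 5, Sgk1, a kinase induced by steroids, was at 241 CPM against 251 to 565. The pericyte and smooth muscle list summed to 1259 CPM, the highest (292 to 1132), but Ndufa4l2 and Cox4i2 made up most of it, and the defining genes Higd1b and Kcnj8 were at 0 UMIs.

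The deeper droplets of pool 13, over 5000 UMIs with the other limits the same, were not used to choose the low-RNA droplets, though they share mice and library. Of 7652 genes 8 were higher (0.105%) and 7 lower (0.0915%) than in the deeper droplets of all other pools. Slpi (188 CPM against 27.4 to 156, 1.27), Gm17669 (1.46), Ftl1-ps1 (-4.59) and Gm8797 (-1.55) were called in both classes. Mepe was at 713 CPM against 36.4 to 636.5 (1.63), and the carbonic anhydrase gene Car12 (1.03), Loxl4 (1.10), Fibin (1.06), C1qtnf12 (1.10) and Prss50 (1.12) were also higher. H19 was lower than in all 15 pools, at 46.6 CPM against 65.4 to 330 (-1.28), as were the small leucine-rich proteoglycan genes Omd (-1.37) and Aspn (-1.19), and F13a1 (-1.17) and S100a6 (-1.06). Cox4i2 was the highest here too (433 against 57.3 to 365 CPM), with a difference of 0.67, and Fmod the second highest (318 against 60.4 to 334 CPM, 0.60). Pf4 was not, at 12.3 CPM against 2.69 to 21.6.

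What low RNA content goes with was tested in the 15 other pools, leaving out pool 13, which had been picked for standing apart from them. Low-RNA droplets were compared with droplets over 5000 UMIs of the same pool with edgeR's quasi-likelihood test, the pool as a block and Benjamini-Hochberg adjustment at 0.05. Of 12834 genes 3451 were higher (26.9%) and 3715 lower (28.9%) in low-RNA droplets, with a median change over all genes of -0.02. The top genes higher in low-RNA droplets were leukocyte genes. The limit of no Tyrobp UMI removes leukocyte transcripts less completely at 1500 to 5000 UMIs than in deeper droplets, whose pool medians were 14068 to 22284 UMIs, so these differences, and the opposite ones of osteoblast genes as shares of the same total, cannot be told apart from the limit itself. Rgs1 rose from 7.08 ± 5.07 to 269 ± 132 CPM (mean ± SD, n = 15 pools; log2 change 5.08 ± 0.21 SE, adjusted p = 5.53e-15 by edgeR), and it was higher in 15 of 15 pools. Mmp12, an elastase of macrophages, rose by 4.96, Laptm5 by 4.53, Lcp1 by 4.53, the chemokine receptor Cxcr4 by 4.43, Gpnmb by 4.42, Ctss by 4.39 and Slfn2 by 4.30, each in 15 of 15 pools. Of the 16 macrophage genes tested 15 were higher and 1, Spp1, lower, with a median of 3.53.

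Osteoblast genes went the other way in those pools. All 14 mature osteoblast genes were lower, with a median of -0.88. Ibsp fell from 45188 ± 9304 to 22978 ± 9026 CPM (log2 change -1.32 ± 0.14 SE, adjusted p = 3.42e-08 by edgeR, n = 15) and was lower in all 15 pools. Bglap2 fell by 1.51, Bglap by 1.47, Ifitm5, a membrane protein of osteoblasts, by 1.31, Kcnk1 by 1.29, Cgref1 by 1.29, Cthrc1, a secreted protein with a collagen-like stretch, by 1.27, and Cryab, a small heat shock protein, by 1.25. These decreases depended on the deeper class. Against droplets over 5000 and up to 10000 UMIs only Kcnk1 of the 8 stayed past the threshold (-0.34). Bglap2 came to -0.29, Ibsp to -0.22 (adjusted p = 0.206 and 0.183 by edgeR) and Cthrc1 to 0.24, a change of sign. The 8 leukocyte genes stayed higher by 2.52 to 3.21. The test was not run at a higher collagen limit, where low-RNA levels moved. From a limit of 5 to 50 the median of the other pools went from 20056 to 40531 CPM for Ibsp and from 2572 to 4424 CPM for Bglap. For Rgs1 it went from 238 to 43.0 CPM and for Gpnmb from 368 to 59.1 CPM.

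At the collagen limit of 5, the same difference in pool 13 was nearer to 0 than the median of the other pools for the 16 genes. Another pool was nearer still for 9 of them. On the scale of log2(CPM + 10), Rgs1 was higher in low-RNA than in deeper droplets by 2.33 in pool 13 and by a median of 3.92 in the other pools, Mmp12 by 2.62 and 4.20, and Gpnmb by 2.77 and 4.04. Rgs1 lay below the other pools (2.90 to 4.93), Mmp12 (1.81 to 5.37) and Gpnmb (2.20 to 5.11) within them. Lyz2 did not follow, with 3.66 in both. Bglap2 was lower by 0.25 in pool 13 and by 1.15 in the other pools, Bglap by 0.28 and 1.05, Cgref1 by 0.14 and 0.83, and Ibsp by 0.71 and 0.85. For Ibsp 5 other pools were nearer to 0 than pool 13 and for Bglap 2, while Cgref1 lay outside the other pools (-2.37 to -0.33). The median of the 14 mature osteoblast genes was -0.30 in pool 13. By the edgeR test in the other pools, the cytochrome c oxidase genes were lower in 16 of 17 cases (median log2 change -0.46). Their median in pool 13 was 0.18 on the scale of log2(CPM + 10), which is another measure, so the size of the gap is not read. These values of pool 13 were set beside those of the other pools without a test, and all are at the collagen limit of 5. At a limit of 50 the low-RNA level of Rgs1 was 64.4 CPM in pool 13 and 43.0 in the median of the other pools (78.8 and 238 at 5). Ibsp was at 37255 and 40531 CPM (36158 and 20056 at 5), and Cgref1 at 202 and 183 CPM. The difference from deeper droplets was not computed at that limit.

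**Figure D3:**
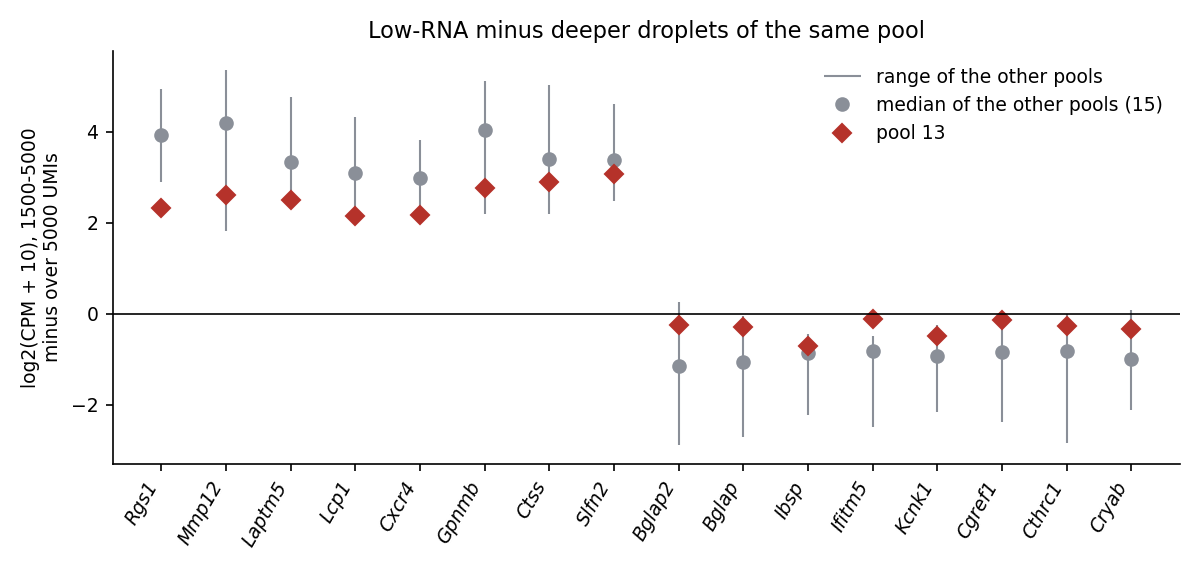
Low-RNA minus deeper droplets of the same pool, as the difference of log2(CPM + 10) of the summed UMIs (y axis), for the 8 highest and 8 lowest genes of the test in the other pools (x axis); grey points and lines are the median and range of the other 15 pools and red diamonds pool 13. At the collagen limit of 5, pool 13 was nearer to 0 than the median in each of the 16 genes and nearer than every other pool in 7.

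The proposed markers were mixed in that test. Fmod and Cox4i2 were lower in low-RNA droplets of the other pools (log2 change -0.80 ± 0.12 SE and -1.03 ± 0.14 SE, adjusted p = 3.78e-06 and 8.52e-07 by edgeR, n = 15), and lower in 14 of 15 pools each. In pool 13 the differences were 0.07 and -0.22 on the scale of log2(CPM + 10) without TMM, which is not the measure of the test. In CPM, low-RNA and deeper droplets had Fmod at 333 and 318 in pool 13, and at 145 and 206 in the median of the other pools. For Cox4i2 these were 371.5 and 433 CPM in pool 13, and 159 and 269 CPM in the median of the other pools. H19 (0.40) and Cxcl14 (0.39) were higher with adjusted p = 0.0282 and 0.0399 by edgeR, in 13 of 15 pools each, and both lost the call without any 1 of 5 pools (H19 without 3, 4, 10, 12 or 17 and Cxcl14 without 4, 6, 7, 9 or 10; highest adjusted p = 0.0713 and 0.108 by edgeR) and in run 2 (0.225 and 0.122) and with no expression filter (0.0946 and 0.128), Cxcl14 also with pool 13 included (0.0734). Against droplets over 5000 and up to 10000 UMIs both turned lower, by 0.80 and 0.96, and Fmod came to 0.10. From a collagen limit of 5 to 50 the low-RNA median of the other pools went from 145 to 201.5 CPM for Fmod. For Cox4i2 it went from 159 to 215 CPM. The test was not run at that limit. Cercam came to 0.26 with adjusted p = 0.0931, and passed the threshold without pool 6 (adjusted p = 0.031), without pool 8 (0.0168), with pool 13 included (0.04) and against droplets over 5000 and up to 10000 UMIs (0.34, adjusted p = 0.00812, all by edgeR).

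By the spread of counts between droplets pool 13 was the most uniform of the 16 pools, with pool 1 next to it. Each droplet was thinned to 1500 UMIs and the variance of a gene's count over droplets was divided by its mean, which is about 1 if droplets differ by sampling only. Over 365 genes with a mean of at least 0.5 UMIs the median ratio was 1.09 in pool 13, and in the other pools it ranged from 1.22 to 2.15 with a median of 1.63. In the deeper droplets pool 13 was ordinary, at 1.43 against 1.22 to 1.54. Ibsp had a ratio of 14.1 against 32.1 to 146 elsewhere, Bglap 2.63 against 6.78 to 34.7, Lyz2 1.71 against 5.31 to 18.5, Lpl 1.91 against 3.17 to 9.94 and the contractile gene Acta2 1.54 against 2.13 to 9.66. In these genes pool 13 was the lowest of 16 pools, as in 17 of the 28 genes looked at. The proposed markers were not among them, with Cox4i2 at rank 15 from the highest, Fmod and H19 at 14, Cercam at 11 and Cxcl14 at 8. The nuclear RNA Malat1 (55.5), Gm42418 (28.6) and the immunoglobulin gene Igkc (25.1) were the genes of pool 13 with the largest ratios. Pool 13 was also the lowest with collagen limits of 20 and 50, any number of Tyrobp UMIs, doublet calls removed, a lower expression limit and run 2 (1.05 to 1.09).

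**Figure D4:**
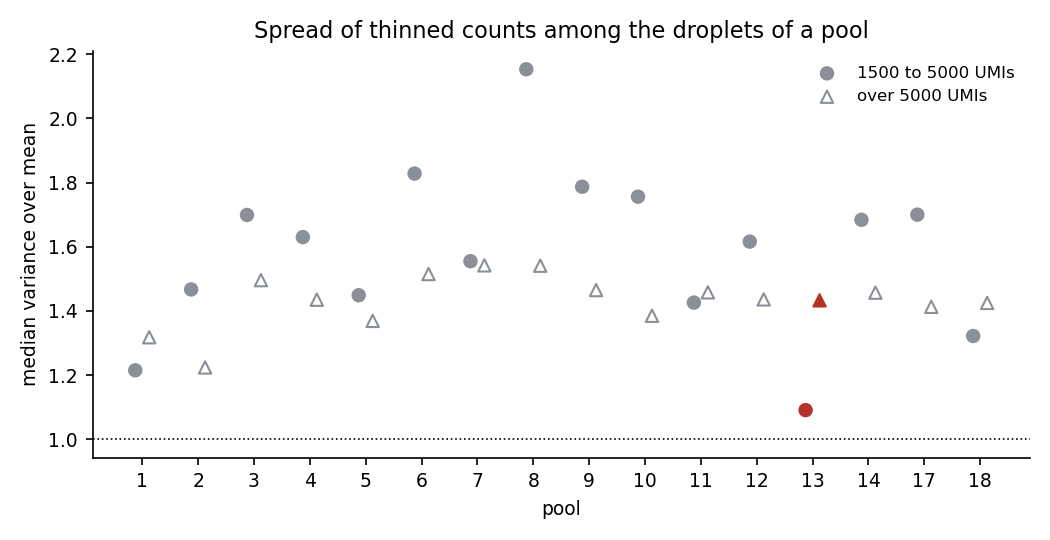
Median over genes of the variance divided by the mean of counts thinned to 1500 UMIs per droplet (y axis) for each pool (x axis); circles are low-RNA droplets, triangles droplets over 5000 UMIs, and red marks pool 13. The circle of pool 13 at 1.09 is the lowest of the 16 and lies near the dotted line at 1, while its triangle at 1.43 is among the others.

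Transcripts of osteoblasts, macrophages and adipogenic cells were found across the same droplets. After thinning to 1500 UMIs, 99.9% of the 2598 droplets had an Ibsp UMI, 93.2% a Bglap UMI (30.7% to 81.4% in the other pools), 71.1% a Lyz2 UMI (20.4% to 56.7%), 72.0% an Apoe UMI (24.5% to 73.3%), 70.5% a Cxcl12 UMI (12.8% to 69.0%) and 47.4% a Mepe UMI (2.53% to 28.4%). Of the proposed markers, Fmod was found in 38.6% (5.05% to 24.8%), Cox4i2 in 41.5% (5.52% to 30.5%), Cxcl14 in 23.9%, Cercam in 15.5% and H19 in 15.01%, the last 3 within the other pools. Unthinned, Fmod was found in 54.6%, Cox4i2 in 58.1% and Lyz2 in 83.1% of the droplets. Other genes of the same lists were mixed. C1qa in 24.6% (7.07% to 22.8%), C1qb in 24.0% (5.96% to 22.8%), Fcer1g in 26.06% (10.05% to 26.0%) and the fatty acid binding gene Fabp5 in 52.7% (22.8% to 49.4%) lay above the other pools, and within them lay Csf1r in 7.35%, Adgre1 in 2.85%, Cd14 in 10.7% and Mrc1 in 5.50% for macrophages and Cebpa in 8.58%, Cd36 in 7.35%, Pparg in 3.70% and Ebf2 in 0.539% for adipogenic cells. Immunoglobulin genes of the B lineage were frequent, Igkc in 27.9% (0.4% to 40.9% elsewhere) and Ighm in 14.7% (0.2415% to 19.3%), both at rank 2, while Cd79a was found in 4 droplets, Cd79b in 1 and Ms4a1 in none. Genes of neutrophils and T cells were rare: after thinning Camp was found in 15 droplets, S100a9 in 14, S100a8 in 11, Lcn2 in 8 and Ngp in 6, Cd3e in 2 and Nkg7 in 1, and Ltf, Retnlg, Cd3d, Trbc2 and Cd8a in none.

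Droplets with 3 or more Tyrobp UMIs in the same UMI range, called leukocyte droplets here by that limit, were compared as another class. Pool 13 had 221 of them, with a median of 3351 UMIs, and macrophage genes in them were mixed. Fcer1g in 62.0% (74.3% to 93.2% elsewhere), Csf1r in 26.2% (33.6% to 53.9%) and Adgre1 in 11.3% (15.8% to 35.6%) lay below all other pools, as did Cd14, Mrc1 and Ctss, while Lyz2 in 88.7% (83.1% to 98.9%), C1qa in 51.6% (45.9% to 80.7%), C1qb, C1qc, Gpnmb and Trem2 lay within them. Thinned alike, 70.1% of them had a Bglap UMI, against 10.8% to 53.5% of such droplets in the other pools, 22.6% a Fmod UMI against 0.488% to 4.98%, 24.4% a Cox4i2 UMI against 0.463% to 5.46%, and 30.3% a Mepe UMI against 0.203% to 4.24%. The 14 mature osteoblast genes summed to 51430 CPM in them, where the median of the other pools was 7781, and to 93049 CPM in the low-RNA droplets without Tyrobp. Conversely the macrophage genes without Spp1 summed to 14499 CPM in the leukocyte droplets of pool 13 and to a median of 23772 in those of the other pools. The leukocyte droplets of pool 13 thus held these osteoblast transcripts at shares above those of all other pools. The limit may not set off the same kind of class in pool 13, however. Of its droplets with at least 5 collagen UMIs per 10000, 364 had 2 Tyrobp UMIs and 206 had 3 or more. In every other pool more had 3 or more than had 2, as in pool 6 with 314 and 82. How far this enters the comparison was not tested.

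**Figure D5:**
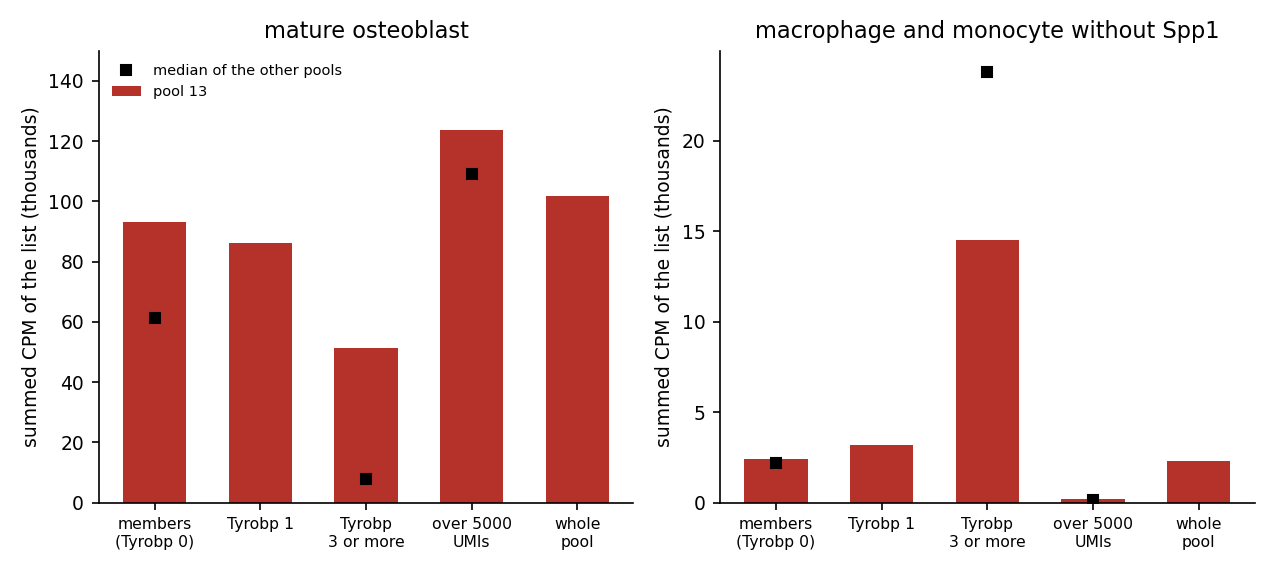
Summed CPM (y axis, in units of 1000 CPM) of the 14 mature osteoblast genes (left) and of the macrophage and monocyte genes without Spp1 (right) in classes of droplets of pool 13 (bars, x axis); black squares are the median of the other 15 pools where the class was computed. Leukocyte droplets of pool 13, with 3 or more Tyrobp UMIs, had 51430 CPM of osteoblast genes against a median of 7781 elsewhere.

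Pairs of genes from different cell types were found together about as often as their single shares predict. Mepe and Lpl, an osteocyte and an adipogenic gene, were found together in 399 droplets where the product of the shares gave 378, a ratio of 1.06; in the deeper droplets of pool 13 the ratio was 0.346, with 19 droplets against 54.9. Of the 3 other pools with a product of at least 20 droplets, pool 5 had a ratio of 1.03 for that pair and the lowest 0.316. Mepe and Lyz2 had a ratio of 1.04 and Fmod and Lyz2 of 0.997 in the low-RNA droplets, and these pairs did not separate in the deeper droplets of pool 13 either, with 1.158 and 1.297. Xist is transcribed in female cells only and genes of the Y chromosome in male cells only, so a cell should have one or the other. Both were found in 212 low-RNA droplets of pool 13 before thinning, where the product gave 238, a ratio of 0.890, and the 6 other pools with a product of at least 20 droplets had 0.397 to 0.630. After thinning there were 76 against 95.6, a ratio of 0.795 (others 0.349 to 0.652, 4 pools). Pools with a smaller product were not compared, and pool 7 among them had 15 droplets against 13.2 before thinning and 7 against 6.11 after it. In the deeper droplets of pool 13 the thinned ratio was 0.150. With 2 of 5 proposed markers called and transcripts of several cell types across the same droplets, the label of a single stromal cell type is not used. The droplets are named here by their limits only. What part of these transcripts came from the suspension was not tested.

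The summed profile of the low-RNA droplets was close to that of the whole pool. Across genes, which are not independent replicates and include those of the same droplets, log2(CPM + 10) of the low-RNA droplets and of all droplets of pool 13 had a correlation of 0.994, the highest of 16 (0.898 to 0.985). With the droplets over 5000 UMIs it was 0.971 (0.813 to 0.962), with droplets of 1 Tyrobp UMI 0.993 (0.843 to 0.974) and with leukocyte droplets 0.905 (0.723 to 0.849). The median size of the difference between low-RNA droplets and whole pool was 0.08 per gene in pool 13 and 0.13 to 0.38 in the others. The low-RNA droplets are a larger share of pool 13 than of any other pool, which enters the correlation with the whole pool. Their sum of 6843198 UMIs was also larger than that of the other pools (533152 to 3383859), so counting noise lowers all of these correlations less in pool 13, and the part of this was not tested.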

How the data were processed

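The authors processed the reads of 32 samples (16 pools, 2 runs) with Cell Ranger 5.0.0 against GRCm38 (mm10 in the submitters' processing notes) and deposited the UMI counts of each called barcode, which are integers without normalization, and to which their later cell filters and Souporcell doublet removal had not been applied. The annotation release is not given in the sources used here. Coordinates are those of GENCODE M21, which held 31011 of 31053 gene identifiers. Members and gene lists were chosen with earlier results of these data known.

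Run 1 was used, and run 2 served as an alternative. Droplets were selected on the limits stated in the report, the authors' ribosomal limits being an alternative. The methods word the limits of 400 and 6200 as reads, and here they were applied to detected genes. Doublets were kept, and removal of the highest scores from simulated doublets, as many as 0.8% per 1000 barcodes, was an alternative. In run 1, the pools had 3460 to 9429 barcodes, and the summed low-RNA droplets had 533152 to 3383859 UMIs in the other pools and 6843198 in pool 13, so levels of pool 13 have the smaller counting error. Counts were summed per pool and class, scaled to CPM, and compared as log2(CPM + 10) for genes with a mean of at least 10 CPM. Named genes were the 5 proposed markers, up to 12 called genes per direction of at least 100 CPM in pool 13 (higher) or in the median pool (lower), the 8 highest and 8 lowest genes of the paired test of at least 100 CPM, and genes of fixed lists; other called genes are named only with their difference and were chosen after their values were seen, and 1 gene called lower is not reported here. Shares and spread between droplets used counts thinned to 1500 UMIs. Exact binomial intervals and the limit that a count of 0 allows (3 counts) cover counting error only.

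Low-RNA and deeper droplets of 15 pools, each with at least 20 droplets in both classes, were compared by the quasi-likelihood test of edgeR 4.0.16 after filterByExpr and TMM normalization, under R 4.3.3, with DESeq2 1.42.0 as an alternative. Both classes come from the same mice and library, which is where the pairing comes from; the deviations from the class means correlated in every pool (lowest 0.248, median 0.418; -0.03 between different pools). The paired test and the thinning were also run on simulated data. Python 3.11.15, numpy 2.4.6, scipy 1.17.1 and pandas 2.3.3 were used. Levels of pools rest on 1 library each. With the pool as a block, p-values measure how the difference between the classes varies over pools.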

Additional observations from a re-analysis of the deposited data

How the results depend on the processing

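The count of genes called in pool 13 against the other pools, 9 higher and 19 lower, depended on scaling and limits. It was 48 and 6 with TMM, 33 and 6 with the size factors of DESeq2, 2 and 2 with a pseudocount of 50, and 20 and 71 for droplets of 1500 to below 3000 UMIs. It was 99 lower with a pseudocount of 1, 4 higher with a mean of at least 50 CPM, 5 lower with a collagen limit of 20 and 3 lower with a limit of 50, and 17 and 147 when the sums of all pools were thinned to the lowest total. The last 2 alternatives were chosen after seeing the data. With edgeR's quasi-likelihood test, which assumes that pool 13 varies like the others, it was 0 and 0 at an adjusted p of 0.05 and 150 and 121 at an unadjusted p under 0.05, and with DESeq2 0 and 1. Leaving out 1 other pool gave 7 to 15 higher and 14 to 29 lower genes, with 14 higher without pool 3, 15 without pool 5 and 29 lower without pool 11. Among genes called lower, Plek came to 0.35 without Tyrobp, Ptprc and Lyz2 UMIs, and with a collagen limit of 50 Rgs1 came to 0.49, Glul to 0.080, Lhfpl2 to 0.015, Plek to 0.25 and Plin2 to 0.13.

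The share of low-RNA droplets in pool 13, 36.1%, was 42.7% at 1000 to 5000 UMIs, 33.3% at 1500 to 4000, 37.9% at 1500 to 7000, 34.0% with doublet calls removed and 5.95% without Tyrobp, Ptprc and Lyz2 UMIs; it was the highest of 16 pools in all of these but the last. The ratio for Xist and Y-linked genes, 0.795, ran from 0.785 to 0.990 in its alternatives, and each lay above the 2 to 6 other pools with a product of at least 20 droplets; pools with smaller products were not compared, and single ones of them had higher ratios.

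In the 15 other pools, 3451 genes were higher and 3715 lower. Without the replicate block these were 3046 and 2912, and leaving out a pool gave 3250 to 3678 and 3348 to 3806. Against droplets over 5000 and up to 10000 UMIs they were 1974 and 2215 of 10338 genes, Fmod came to 0.10, Cthrc1 to 0.24, H19 to -0.80 and Cxcl14 to -0.96. Of 384 alternative values of the 16 named genes of this test 377 kept direction and call, and the other 7 were those against droplets over 5000 and up to 10000 UMIs. No alternative of this test raised the collagen limit. Without the block the calls of these 16 genes held, and H19 and Cxcl14 lost theirs (adjusted p = 0.0987 and 0.498 by edgeR) with log2 changes of 0.63 and 0.43 that were not smaller than with it. The causes of these changes were not tested.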
